A study of Mus musculus with 14 samples.

Results

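Plpp3, the gene for a phosphatase that removes the phosphate from lysophosphatidic acid (LPA) and sphingosine 1-phosphate (S1P), was followed together with 9 other genes of lysophospholipid signaling in liver sinusoidal endothelial cells (LSECs) of the mouse after a single dose of carbon tetrachloride (CCl4). The 10 genes (Plpp3, Plpp1, S1pr1, S1pr2, S1pr3, Sphk1, Sphk2, Spns2, Sgpl1 and Enpp2) are 10 of the 54524 genes counted, found by matching their Ensembl identifiers to gene names, and the set was chosen by the counts of Plpp3, which were clearly lower at day 3 than in healthy mice. Bulk RNA sequencing was done on LSECs from 14 male Balb/c mice in 4 groups: 4 healthy mice that received no injection, and 2 mice at day 1, 4 at day 3 and 4 at day 7 after 1 intraperitoneal injection of CCl4 in mineral oil at 0.5 µl per g of body weight. CCl4 is a solvent that injures hepatocytes. The labels give an age of 10 to 12 weeks and the study's methods 11 to 14 weeks, and no group received mineral oil alone. LSECs were sorted as CD32+ cells without F4/80, UV autofluorescence or propidium iodide staining, and the methods also list CD45 as a negative marker. By design the F4/80 gate removes Kupffer cells, the UV gate stellate cells and the CD45 gate immune cells. No culture step lay between the sort and the RNA.

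LPA and S1P are small lipids that act outside the cell on G protein-coupled receptors. Sphingosine kinases (Sphk1, Sphk2) make S1P, the transporter Spns2 releases it from endothelial cells, the lyase Sgpl1 breaks it down inside the cell, and autotaxin (Enpp2), a secreted enzyme, makes LPA from lysophosphatidylcholine. The lipid phosphate phosphatases encoded by Plpp1 and Plpp3 end the signal of both lipids at the cell surface. In endothelium, S1pr1 is known for keeping the barrier between cells tight, whereas S1pr2 and S1pr3 also couple to G proteins that act on the cytoskeleton.

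Promoter sequences are shown for Plpp3, the gene that defined the set, and for Sphk1, the gene of the set with the largest rise at day 1. They run from 250 bases before to 50 bases after a RefSeq start on GRCm38.p6, and the RefSeq table held at least 1 such window for 7 of the 10 genes (Plpp3, S1pr2, S1pr3, Sphk1, Sphk2, Spns2 and Sgpl1). Capitals mark 3 short motifs searched on both strands: CACCC, the core that Krüppel-like factors bind, GGGCGG, the GC box, and TGANTCA, the AP-1 motif. The Plpp3 window lies on the plus strand at chr4:105157097-105157396. Of the 5 Sphk1 windows, 2 held TGANTCA, and the more upstream of these is shown, at chr11:116531587-116531886 on the plus strand.
Plpp3: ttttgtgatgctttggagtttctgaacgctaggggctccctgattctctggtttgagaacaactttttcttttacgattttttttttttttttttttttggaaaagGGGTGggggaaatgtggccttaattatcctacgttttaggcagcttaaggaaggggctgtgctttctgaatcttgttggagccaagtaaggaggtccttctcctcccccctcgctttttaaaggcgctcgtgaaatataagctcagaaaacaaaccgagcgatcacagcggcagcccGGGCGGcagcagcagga
Sphk1: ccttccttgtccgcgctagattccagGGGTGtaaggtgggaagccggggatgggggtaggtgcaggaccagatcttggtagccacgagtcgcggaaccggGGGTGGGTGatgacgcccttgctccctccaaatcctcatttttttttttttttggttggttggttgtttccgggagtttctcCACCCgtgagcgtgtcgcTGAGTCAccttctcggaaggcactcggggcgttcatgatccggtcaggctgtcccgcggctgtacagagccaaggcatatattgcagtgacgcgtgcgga
The Plpp3 window held 1 CACCC and 1 GGGCGG match, the former on the opposite strand. In the Sphk1 window stood 4 CACCC matches, a pair of which overlap each other, and 1 TGANTCA match, the motif by which this window was picked. Across all 32851 windows of the table, 57.5% held CACCC, 35.7% held GGGCGG and 7.81% held TGANTCA. These matches describe the letters of the windows, and no binding was measured.

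Each library held 46401496 to 103912264 gene counts, and 26626 genes, among them all 10 of the set, passed the filter on low counts. Levels are given as CPM, counts scaled to the TMM-adjusted library size. Genes were compared with edgeR's quasi-likelihood test, with p-values adjusted over all 26626 genes (Benjamini-Hochberg) and a gene called changed at an adjusted p under 0.05. Since the fall of Plpp3 chose the set, Plpp3 is given as values without a test wherever healthy or day 3 samples enter. The summed CPM of 12 LSEC markers was 18895 to 22823 in healthy samples. It was 13547 and 16654 at day 1, and ranged over 11981 to 16919 (day 3) and 11591 to 16876 (day 7). The 12 markers did not move as one. At day 1, 7 lay under and 1 (Lyve1) above every healthy sample. At day 3, 6 lay under and 1 (Lyve1) above, and at day 7, 4 lay under and 0 above. None of the 12 was undetected in any sample. Markers of other liver cells also differed between libraries. Those of monocytes and neutrophils were high at day 1 and in mice 1 and 2 of day 3. Those of hepatic stellate cells were high at days 3 and 7. Hepatocyte sums were 755 to 2752 CPM at day 3 and 694 to 5567 CPM at day 7, against 167 to 323 CPM in healthy mice 1 to 3. Healthy mouse 4 had the highest hepatocyte sum (7065 CPM), and 0 of 9 hepatocyte markers lay above every healthy sample at day 3 or day 7. Kupffer and macrophage markers were present in every group, with sums of 175 to 1339 CPM in healthy mice and 570 to 1597 CPM at day 3. In bulk samples, fewer cells of a type and less RNA per cell cannot be told apart. The kit named in the methods does not mark the strand, and exons of 6 of the 10 genes overlap those of a gene on the other strand (Plpp1 with Mtrex, S1pr3 with Gm32834, Sphk1 with Gm29292, Sphk2 with Dbp and Rpl18, Spns2 with Mybbp1a, Enpp2 with Gm26684), so their counts are uncertain to that extent.

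Per kilobase of exon, the phosphatase genes were by far the most abundant of the set in healthy LSECs. Plpp3 stood at 1105 ± 89.1 CPM per kb (SD, n = 4) and Plpp1 at 936 ± 157, and their samples overlapped. S1pr1 followed with 68.6 ± 6.60 CPM per kb and Spns2 with 21.6 ± 2.01, each apart from its neighbours in the order. Sphk2 (8.20 ± 1.72) and Sgpl1 (6.72 ± 1.05) overlapped each other. At the low end, S1pr2 (1.12 ± 0.213), Enpp2 (0.429 ± 0.460), S1pr3 (0.307 ± 0.172) and Sphk1 (0.235 ± 0.119 CPM per kb) each overlapped the next gene in the order. At day 1 the order at the top was turned, with Plpp1 at 1517 ± 191 CPM per kb (n = 2) above Plpp3 at 864 ± 159, and the samples of these genes did not overlap.

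Plpp3 (ENSMUSG00000028517) lies on chromosome 4 at 105157347 to 105232764 of GRCm38, on the plus strand, and overlaps no other annotated gene. Its level was 3320, 3735, 3724 and 3183 CPM in the healthy mice, 2376 and 3084 at day 1, 925, 807, 1860 and 1782 at day 3, and 1847, 1444, 1667 and 1951 at day 7. All 10 samples taken after CCl4 lay under the lowest healthy sample, day 1 by the least, and the samples of days 3 and 7 overlapped. Over all genes tested, 37.9%, 14.4% and 20.8% did not overlap healthy samples at days 1, 3 and 7, in either direction. For Plpp3 the gap at day 3 came with the choice of the set. The group means were 3491 ± 281 CPM in healthy LSECs (SD, n = 4), 2730 ± 501 at day 1 (n = 2), 1343 ± 554 at day 3 (n = 4) and 1728 ± 222 at day 7 (n = 4). On the log2 scale the fitted difference from healthy was -0.35 ± 0.32 (SE) at day 1, -1.38 ± 0.26 at day 3, where Plpp3 stood 2.60-fold lower, and -1.01 ± 0.26 at day 7. The mean at day 7 stayed 2.02-fold under that of healthy LSECs. The libraries of day 7 also had a higher mitochondrial share of counts, 5.28% to 9.87% against 3.04% to 3.65% in healthy mice, and its part in the day 7 values was not tested.

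Day 3 was not uniform for Plpp3. Mouse 4 stood apart in its library, with 22986 genes detected against 28203 to 34768 in the other 3, and without it the difference of Plpp3 between day 3 and healthy was -1.61 on the log2 scale. Mice 1 and 2 had 925 and 807 CPM and mice 3 and 4 had 1860 and 1782 CPM, so that the latter pair lay within the range of day 7. The summed CPM of the 10 monocyte and neutrophil markers was 4184 and 2404 in mice 1 and 2 against 133 and 98.8 in mice 3 and 4. Kupffer and macrophage sums were also higher in mice 1 and 2, at 1597 and 1431 CPM against 570 and 607. Lymphocyte, platelet, erythroid, cholangiocyte and large vessel sums were higher in these mice too. LSEC sums were lower in them, at 11981 and 12908 against 15328 and 16919, as were general endothelial and proliferation sums. Stellate cell and hepatocyte sums of the pairs overlapped. Without mice 1 and 2, left out after seeing the data, the difference of Plpp3 between day 3 and healthy was -0.96 on the log2 scale. This split follows Plpp3 values that chose the set. The monocyte and neutrophil sums of mice 3 and 4 lay in the healthy range of 32.7 to 195. The part of other cells in the Plpp3 values of day 3 was not tested. The comparison of day 7 with day 1, which holds none of the samples that chose the set, gave a log2 fold change of -0.66 ± 0.31 for Plpp3, which was not called (edgeR adjusted p = 0.210). Of 24 alternatives 2 called it, with adjusted p from 0.0175 (limma-voom with sample quality weights) to 0.714. The samples of days 1 and 7 did not overlap for Plpp3, as for 43.5% of all genes tested.

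**Figure D1:**
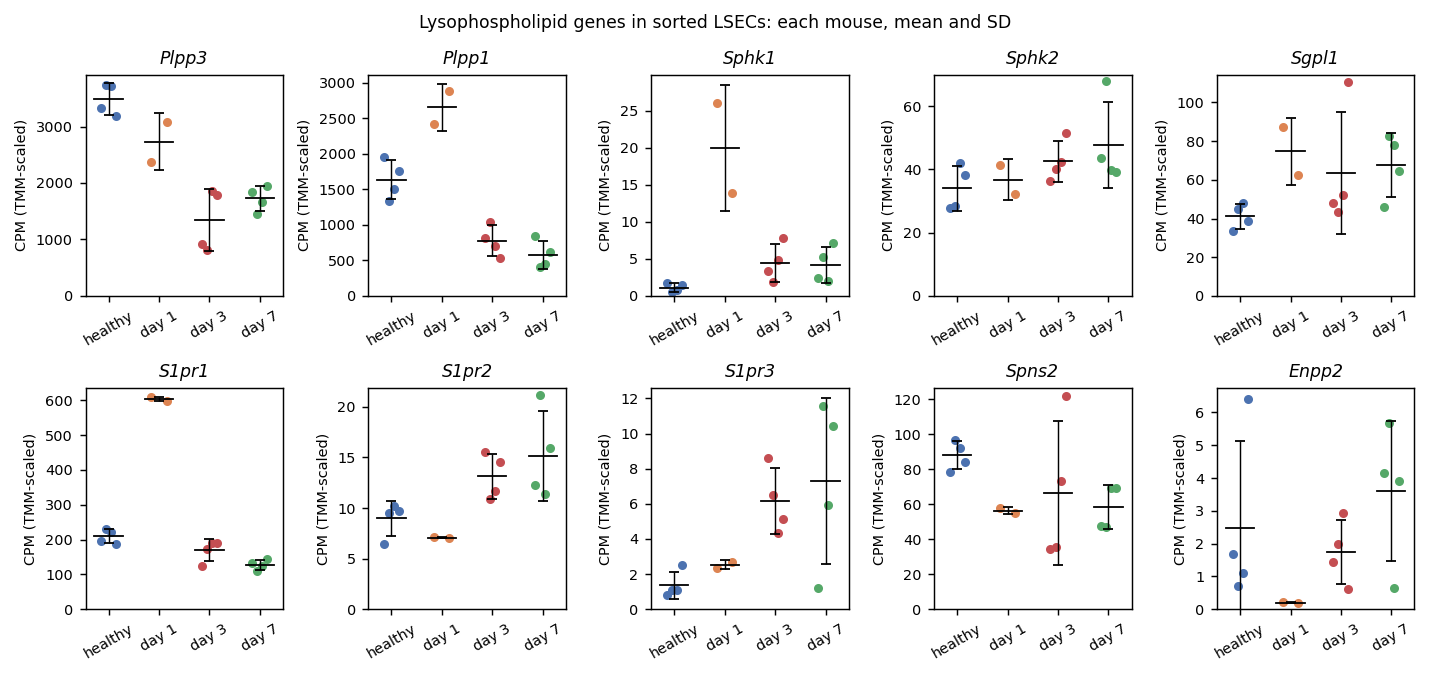
Level of each of the 10 genes in CPM (linear axis, from 0) in every mouse by group; points are mice, the horizontal line is the mean and the bar the SD, cut at 0 for Enpp2 in healthy mice. All 10 samples after CCl4 lie under the healthy samples for Plpp3, whose fall at day 3 chose the set. S1pr1 stands at 608 and 599 CPM at day 1 only, and S1pr3 is low in 1 of the 4 mice of day 7.

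Plpp1 (chromosome 13, 112800792 to 112867894) encodes a phosphatase of the same family and took a different course. Its level was 1954, 1334, 1501 and 1765 CPM in the healthy mice, 2419 and 2891 at day 1, 823, 1047, 705 and 531 at day 3, and 837, 406, 443 and 625 at day 7. Both day 1 samples lay above every healthy sample, and all 8 later samples lay under every healthy sample. The higher level at day 1 was not called (log2 fold change 0.70 ± 0.31, edgeR adjusted p = 0.261). Plpp1 fell at day 3 (-1.08 ± 0.26, edgeR adjusted p = 0.0265) and at day 7 (-1.50 ± 0.27, edgeR adjusted p = 0.0116), when it was 2.84-fold under healthy. The difference between days 1 and 3 was -1.77 ± 0.31 (edgeR adjusted p = 0.0109) and that between days 1 and 7 was -2.20 ± 0.31 (edgeR adjusted p = 0.00155). The call at day 7 against healthy held with each of the 14 samples left out in turn, whereas that at day 3 was lost without healthy mouse 1 or 3 (adjusted p = 0.0779 and 0.0520), and that of day 3 against day 1 without either mouse of day 1 (adjusted p = 0.0672 and 0.102).

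Of the kinases that make S1P, Sphk1 (chromosome 11, 116530925 to 116536674), the inducible one, rose sharply at day 1. It was near the bottom of the range in healthy LSECs, with 1.76, 0.505, 0.811 and 1.41 CPM (43 to 176 counts), and reached 26.0 and 13.96 CPM at day 1 (2173 and 1268 counts). Both day 1 samples lay above those of every other group. Sphk1 was thus 17.8-fold higher at day 1 than in healthy LSECs (log2 fold change 4.15 ± 0.64, edgeR adjusted p = 0.00259), a call lost only without mouse 1 of day 1 among the 14 samples left out (log2 fold change 3.61, adjusted p = 0.0585).

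At days 3 and 7 Sphk1 stayed above the healthy range at lower levels. The values were 3.33, 1.84, 4.89 and 7.86 CPM at day 3 and 2.38, 5.23, 2.05 and 7.14 CPM at day 7, none of them inside the healthy range. The rise at day 3 was called (log2 fold change 2.00 ± 0.55, edgeR adjusted p = 0.0421), but of the 14 fits that each left out 1 sample only the one without mouse 2 of day 3 kept the call, and adjusted p reached 0.113. Day 7 was not called (1.91 ± 0.54, edgeR adjusted p = 0.0725). From day 1 to day 7 Sphk1 fell by 2.25 on the log2 scale (SE 0.62, edgeR adjusted p = 0.0405), a call lost with library size alone as the scaling (adjusted p = 0.0686) and in 9 of the 14 fits without 1 sample (healthy mouse 3, either mouse of day 1, mouse 1 or 3 of day 3, any 1 mouse of day 7), with adjusted p up to 0.426.

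The monocyte and neutrophil markers moved with Sphk1 at day 1. Their sum was 7068 and 3005 CPM in the mice of day 1 against 32.7 to 195 in healthy mice, with 9 of 10 markers above every healthy sample, S100a8 at 736 to 2140 CPM and S100a9 at 1595 to 3692 CPM among them. The mouse of day 1 with more Sphk1 also had the higher sum. At day 3 the order was the other way round: mice 3 and 4, whose sums of 133 and 98.8 CPM lay in the healthy range, had 4.89 and 7.86 CPM of Sphk1, against 3.33 and 1.84 CPM in mice 1 and 2, whose sums were 4184 and 2404. At day 7 the sums were 200 to 364 CPM, all above the healthy range, with 5 of 10 markers above every healthy sample, and Sphk1 was above its healthy range as well. Of the 10 markers, Retnlg was at 0 in at least 1 mouse of day 3. Platelet markers were higher at day 1 as well, at 103 and 284 CPM in sum against 27.2 to 44.2 in healthy mice, with 3 of 5 above every healthy sample. The part of other cells in the day 1 rise was not tested.

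Sphk2 (chromosome 7, 45709467 to 45718002), the second kinase, was called in none of the comparisons. It ranged from 27.8 to 42.0 CPM in healthy mice, was 41.3 and 32.1 at day 1, and ranged from 36.3 to 51.7 at day 3 and from 39.2 to 68.0 at day 7. Every group overlapped the healthy one. The largest difference was at day 7, 0.49 ± 0.22 on the log2 scale (edgeR adjusted p = 0.223). Exons of Sphk2 lie over those of Dbp and of the ribosomal protein gene Rpl18.

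Sgpl1 (chromosome 10, 61098642 to 61147703), the S1P lyase, was 33.5, 44.9, 48.0 and 38.7 CPM in healthy mice and 87.1 and 62.5 CPM at day 1, above all of these. The later groups overlapped the healthy one, with 48.3, 43.3, 52.1 and 111 CPM at day 3 and 45.8, 82.5, 78.2 and 64.5 CPM at day 7. None of the 3 differences from healthy was called, with log2 fold changes of 0.86 ± 0.35 (edgeR adjusted p = 0.206), 0.62 ± 0.29 (0.230) and 0.71 ± 0.29 (0.184).

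Spns2 (chromosome 11, 72451638 to 72489904), the S1P exporter of endothelium, was 78.7, 97.1, 92.5 and 84.3 CPM in healthy mice, 57.7 and 54.9 at day 1, and 47.5, 47.3, 69.4 and 69.6 at day 7. Day 1 and day 7 lay under the healthy range without overlap, and neither was called (log2 fold changes -0.65 ± 0.42 and -0.59 ± 0.34, edgeR adjusted p = 0.482 and 0.327). The samples of day 3 were spread the most, at 34.7, 35.7, 73.4 and 122 CPM. As for Plpp3, mice 1 and 2 were the low pair there. The log2 fold change at day 3 was -0.41 ± 0.34 (edgeR adjusted p = 0.525), became -0.95 and was called without mouse 4 (adjusted p = 0.0400), and turned to 0.12 without mice 1 and 2 (adjusted p = 0.772).

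Among the receptors, S1pr1 (chromosome 3, 115710433 to 115715072) had a peak at day 1. Its level was 197, 231, 221 and 188 CPM in healthy mice and 608 and 599 CPM at day 1, then 123, 173, 191 and 191 CPM at day 3 and 132, 111, 124 and 145 CPM at day 7. No sample of another group came near those of day 1, and all 4 samples of day 7 lay under the healthy ones. S1pr1 rose 2.89-fold at day 1 (log2 fold change 1.53 ± 0.20, edgeR adjusted p = 0.000781) and then fell by 1.83 on the log2 scale to day 3 (SE 0.20, edgeR adjusted p = 0.00125), while the level at day 7 had dropped by 2.24 (SE 0.20, edgeR adjusted p = 0.000128). These 3 calls held with each of the 14 samples left out in turn.

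The level of S1pr1 at day 3 was not called against healthy (-0.30 ± 0.17, edgeR adjusted p = 0.319). At day 7 it fell below healthy, 1.63-fold (-0.71 ± 0.17, edgeR adjusted p = 0.0394). This call was lost in 12 of the 14 fits that left out 1 sample, all except those without mouse 1 or mouse 4 of day 3, with adjusted p up to 0.153, and when library size alone was used for scaling (adjusted p = 0.130). Markers of large vessels and capillaries, which are other endothelial cells that CD32 sorting could let pass, summed to 1052 and 1480 CPM at day 1 against 883 to 1014 in healthy mice, with 4 of 8 above and 2 of 8 under every healthy sample. Lymphocyte markers, from cells known for S1pr1, were at 62.4 and 64.4 CPM in sum at day 1, inside the healthy range of 36.3 to 185. Monocyte and neutrophil sums (7068 and 3005 CPM) and platelet sums (284 and 103 CPM) were above the healthy range in both mice of day 1. Hepatocyte, stellate cell and erythroid sums were under it in both. The part of these cells was not tested.

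S1pr2 (chromosome 9, 20962361 to 20976781) was lowest at day 1 and highest at day 7. Healthy mice had 6.45, 9.53, 10.2 and 9.74 CPM, those of day 1 had 7.15 and 7.02, those of day 3 had 15.5, 10.9, 11.7 and 14.5, and those of day 7 had 12.3, 21.1, 11.4 and 16.0. All samples of days 3 and 7 lay above those of the healthy mice and of day 1. Against healthy LSECs no day was called, with log2 fold changes of -0.34 ± 0.29 at day 1, 0.55 ± 0.24 at day 3 and 0.76 ± 0.24 at day 7 (edgeR adjusted p = 0.633, 0.188 and 0.0946). From day 1 to day 7 S1pr2 rose 2.14-fold (1.10 ± 0.31, edgeR adjusted p = 0.0427), a call lost in 7 of the 14 fits without 1 sample (healthy mouse 2 or 3, either mouse of day 1, mouse 3 of day 3, mouse 2 or 4 of day 7), where adjusted p reached 0.336.

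S1pr3 (chromosome 13, 51408639 to 51422797) rose at days 3 and 7. It was 0.818, 1.09, 1.07 and 2.51 CPM in healthy mice (82 to 219 counts) and 2.37 and 2.71 CPM at day 1. At day 3 the mice had 8.61, 6.50, 4.36 and 5.13 CPM, all above the healthy range, and at day 7 they had 1.23, 11.6, 5.95 and 10.4 CPM, with mouse 1 inside it. The log2 fold change was 0.89 ± 0.65 at day 1 (edgeR adjusted p = 0.545), 2.16 ± 0.57 at day 3 (0.0356) and 2.41 ± 0.57 at day 7 (0.0394), that is 4.48-fold and 5.32-fold higher at the later days. Leaving out 1 sample ended the call in 10 of 14 fits at day 3 (healthy mouse 1, 2 or 3, either mouse of day 1, mouse 1, 2 or 3 of day 3, mouse 3 or 4 of day 7) and in 9 of 14 at day 7 (healthy mouse 1, 2 or 3, either mouse of day 1, mouse 3 of day 3, mouse 2, 3 or 4 of day 7), with adjusted p up to 0.103 and 0.131. Without mice 1 and 2 of day 3, the log2 fold change at day 3 was 1.74 (adjusted p = 0.125).

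Hepatic stellate cell markers were higher in many of the same libraries as S1pr3. Their sum was 144 to 267 CPM in healthy mice, 102 and 123 at day 1, and 690 to 2068 (day 3) and 386 to 5912 (day 7) later, with all 10 markers above every healthy sample at day 3 and 7 of 10 at day 7. Mouse 1 of day 7, the only one with S1pr3 inside the healthy range, had the lowest sum of its group (386), and mouse 2, with the highest S1pr3, had the highest (5912). Mouse 3 of day 3 was lowest of its group in both, with 4.36 CPM of S1pr3 and a sum of 690. Mouse 4 of day 3 went against this order. It had the highest sum of its group (2068) and 5.13 CPM of S1pr3, less than mice 1 and 2 (8.61 and 6.50 CPM). The day 1 samples were at the low end for the markers and at 2.37 and 2.71 CPM for S1pr3. None of the 10 markers was at 0 in any sample, and their part in the S1pr3 rise was not tested.

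Enpp2 (chromosome 15, 54838901 to 54952892), the autotaxin gene, was low throughout and varied widely within groups. Its level was 1.70, 0.693, 1.11 and 6.42 CPM in healthy mice, 0.215 and 0.187 CPM at day 1 (18 and 17 counts), 1.45, 1.97, 2.95 and 0.626 CPM at day 3, and 4.17, 5.69, 0.639 and 3.91 CPM at day 7. Both samples of day 1 lay under those of every other group, and the other groups overlapped. The difference between day 1 and healthy was -3.61 ± 1.09 on the log2 scale and was not called (edgeR adjusted p = 0.0869), while DESeq2 called it (adjusted p = 0.00138, range over the alternatives 0.00138 to 0.598). From day 1 to day 7 Enpp2 rose 17.8-fold (4.15 ± 1.13, edgeR adjusted p = 0.0387), a call lost without either mouse of day 1 or without mouse 1, 2 or 4 of day 7 (adjusted p up to 0.319).

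The hepatocyte markers were high or low in many of the same libraries as Enpp2. Their sum was 28.7 and 120 CPM at day 1, the lowest of all libraries, with 7 of 9 markers under every healthy sample and Tat at 0 in 1 of these mice. Healthy mouse 4, with 6.42 CPM of Enpp2, had a sum of 7065 CPM against 167 to 323 in the other 3 healthy mice. At day 7 the highest Enpp2 was in mouse 2, with the highest sum (5567), and the lowest in mouse 3, with the lowest (694). Other libraries went against this order. Mouse 4 of day 3 had the lowest Enpp2 of its group and a sum of 1726 CPM, above that of mouse 1 (755). Mouse 3 of day 7, with its sum of 694, had less Enpp2 than the healthy mice with sums of 167 to 323, and of the mice of day 1 the one with the lower sum had the higher Enpp2. The part of hepatocyte RNA in the Enpp2 values was not tested.

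**Figure D2:**
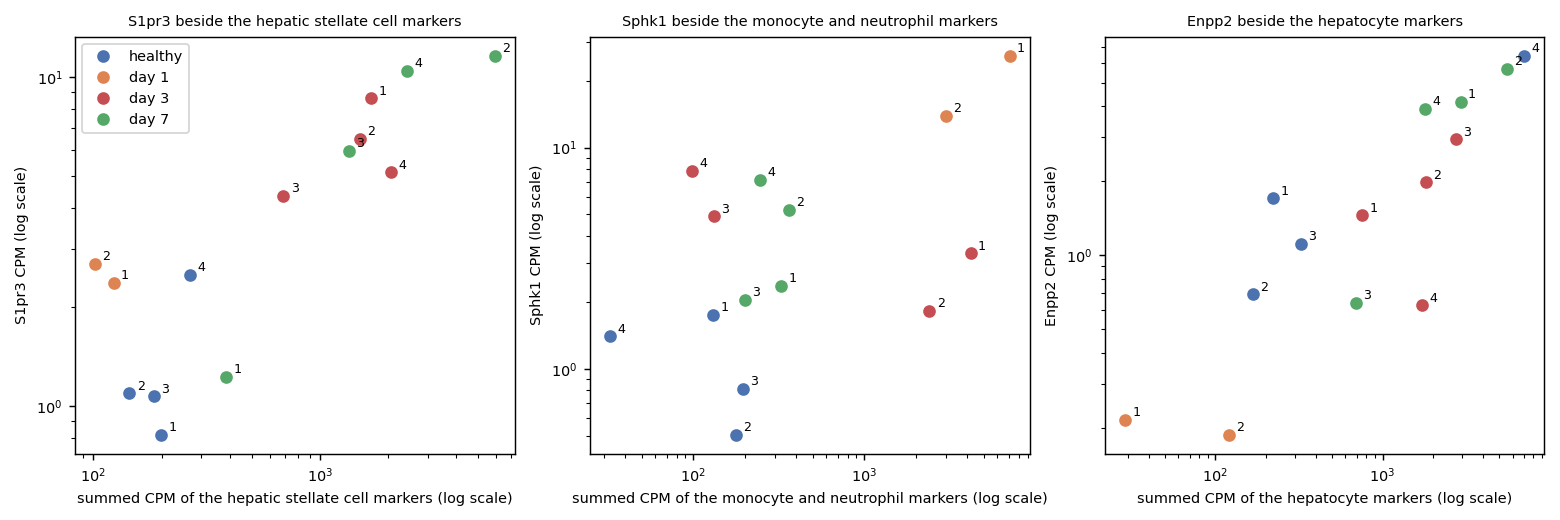
CPM of S1pr3, Sphk1 and Enpp2 in each of the 14 mice (log scale) against the summed CPM of hepatic stellate cell, monocyte and neutrophil, and hepatocyte markers (log scale), with the mouse number beside each point. Within day 7, S1pr3 is lowest in mouse 1, which also has the lowest stellate sum of that group. Sphk1 is highest in the day 1 mice with sums of 7068 and 3005 CPM but not in day 3 mice 1 and 2. Enpp2 is lowest in the day 1 mice with hepatocyte sums of 28.7 and 120 CPM.

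Counted over the 9 genes other than Plpp3, 2 were called at day 1 against healthy, both higher (S1pr1 and Sphk1), where 4.06% of all genes tested were called. At day 3 there were 3, with S1pr3 and Sphk1 higher and Plpp1 lower (7.19% of all genes), and at day 7 there were 3, with S1pr3 higher and Plpp1 and S1pr1 lower (3.18% of all genes). Only Plpp1 and S1pr3 were called at both later days, and no gene was called at all 3. Samples did not overlap those of healthy mice for 6 of the 9 at day 1, 4 at day 3 and 5 at day 7, where 37.9%, 14.4% and 20.8% of all genes did not. The 3 comparisons share their healthy samples, and the 9 genes were chosen with earlier results of these data known. Other tools called more of the 9 against healthy. DESeq2 added Enpp2 at day 1 and Sphk1 and S1pr2 at day 7. With limma-voom and quality weights, Plpp1 (higher, adjusted p = 0.0152), Sgpl1 (higher, 0.0143) and Spns2 (lower, 0.0271) were added at day 1, S1pr1 and Spns2 (both lower) at day 3, and Sphk1, Sgpl1 and S1pr2 (higher) and Spns2 (lower) at day 7, while Sphk1 was lost at day 3 (adjusted p = 0.0581).

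Between the days after injury, 2 of the 9 were called from day 1 to day 3, Plpp1 and S1pr1, both lower at day 3 (2.54% of all genes). The samples of these days did not overlap for 6 of the 9 (21.8% of all genes). Between days 1 and 7, with Plpp3 included, 5 of 10 differed, Plpp1, S1pr1 and Sphk1 lower and S1pr2 and Enpp2 higher at day 7 (8.04% of all genes). No gene of the 9 was called between days 3 and 7 by edgeR (1.77% of all genes), and the samples overlapped for each of the 9 (7.91% of all genes did not overlap). There 1 had an unadjusted p under 0.05 (S1pr1, 0.0298), DESeq2 called 0 and limma-voom with quality weights called 1 (Plpp1).

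**Figure D3:**
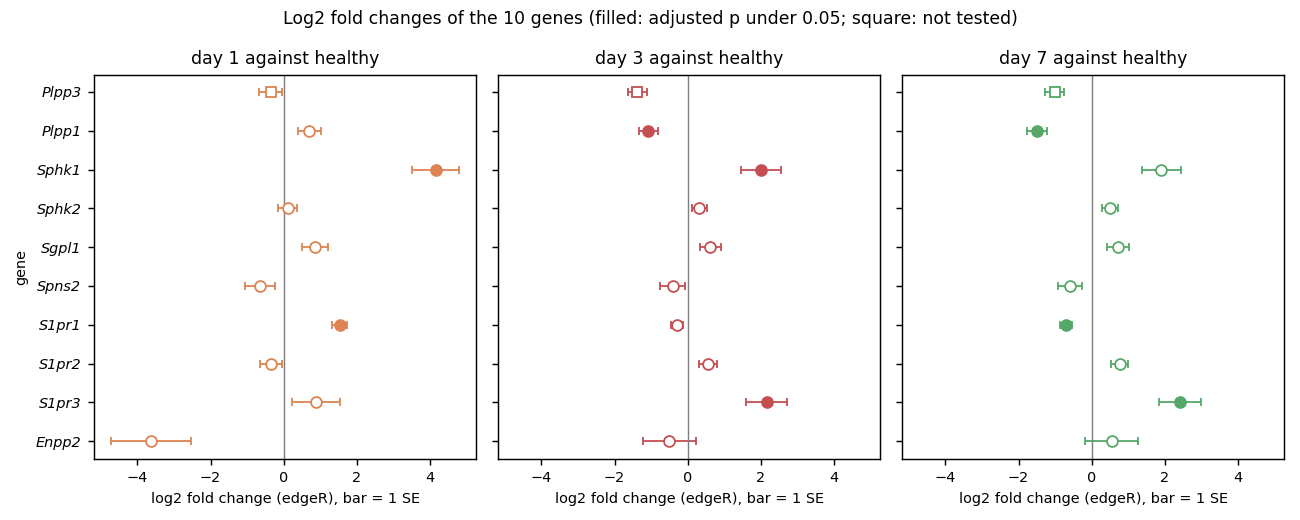
Log2 fold change (horizontal axis) of the 10 genes at days 1, 3 and 7 against healthy, with a bar of 1 SE on each side; filled points passed an edgeR adjusted p under 0.05, and Plpp3 (square) was not tested. Sphk1 stands farthest right at day 1 (4.15), S1pr3 is at 2.16 and 2.41 at days 3 and 7, and Plpp1 moves from 0.70 at day 1 to -1.50 at day 7.

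The other genes of LPA and S1P metabolism and signaling were listed in 8 groups with 75 genes, of which 73 were tested (Plpp4 and Sptlc3 did not pass the filter). At day 1, 7 of the 73 (9.59%, beside 4.06% of all genes tested) were called, all higher. At day 3, 4 were higher and 4 lower (10.96% beside 7.19%), and at day 7, 3 were higher and 2 lower (6.85% beside 3.18%). The lists were chosen with earlier results of these data known, so the shares are a description. Leaving out either mouse of day 1 left 1 of the 7 calls at day 1, and leaving out healthy mouse 1, healthy mouse 3 or mouse 2 of day 7 left 1 of the 5 at day 7. The calls that held with each of the 14 samples left out were those of Plpp2, Abca1, Cers4, Cers6 and Lpcat1 at day 3 and of Cers6 at day 7. The median log2 fold change over the 73 genes was 0.15, -0.08 and 0.01 at the 3 days, beside -0.03, 0.18 and 0.02 over all genes tested.

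Of 6 LPA receptors only Lpar6 was called, and only at day 3. Lpar6 was the most abundant of them per kilobase in healthy mice, at 83.9 CPM per kb, with Lpar4 next at 1.45. It had 436, 449, 485 and 442 CPM in healthy mice and 276, 221, 249 and 195 CPM at day 3, with no overlap, and it fell 1.93-fold (log2 fold change -0.95 ± 0.24, edgeR adjusted p = 0.0293). The call was lost without healthy mouse 1, 2 or 3 or mouse 2 of day 3 (adjusted p up to 0.0763). At day 7 mouse 1 had 447 CPM and the other 3 between 197 and 237 CPM, and the difference was not called (edgeR adjusted p = 0.102). Neither S1pr4 nor S1pr5, the remaining S1P receptors, was called at any day, nor was any of 5 receptors for other lysophospholipids or any of 11 genes of G protein coupling.

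Among 6 tested lipid phosphatases, the related gene Plpp2 rose at days 3 and 7, when Plpp1 fell. It was at 2.61 to 4.54 CPM in healthy mice and at 12.2 to 20.1 CPM at day 3, and rose 4.24-fold there (2.09 ± 0.29, edgeR adjusted p = 0.00210) and 2.40-fold at day 7 (1.26 ± 0.29, edgeR adjusted p = 0.0330). At day 1 its level was also above the healthy range, like that of Plpp1, and was not called (1.07 ± 0.34, edgeR adjusted p = 0.0980). The call at day 7 was lost in 9 of the 14 fits without 1 sample (healthy mouse 1, 2 or 3, either mouse of day 1, mouse 3 of day 3, mouse 2, 3 or 4 of day 7). Per kilobase Plpp2 remained far under Plpp1 and Plpp3. Sgpp1, which removes the phosphate from S1P inside the cell, fell at day 3 (-0.99 ± 0.23, edgeR adjusted p = 0.0232), from 425 to 476 CPM in healthy mice to 168, 152, 270 and 308 CPM. As with Plpp3, mice 1 and 2 were the lowest of that day. Plpp1 and S1pr3 were instead higher in mice 1 and 2 of day 3 than in mice 3 and 4. The Sgpp1 call was lost without mouse 1 or 2 of day 3 or without any 1 healthy mouse (adjusted p up to 0.0653).

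Of 5 S1P carriers and transporters, Abca1, a lipid exporter of the cell membrane, was called at every day. It was at 43.1 to 61.2 CPM in healthy mice and at 102 to 256 CPM in all 10 samples after CCl4, with log2 fold changes of 1.37 ± 0.30, 1.59 ± 0.26 and 1.28 ± 0.26 (edgeR adjusted p = 0.0203, 0.00428 and 0.0197). The call at day 1 was lost without healthy mouse 1 or 4 or either mouse of day 1 (adjusted p up to 0.297), and that at day 7 without healthy mouse 1 or 3 or mouse 2 of day 7 (up to 0.0694). Abcc1, another exporter, rose at day 3 (0.93 ± 0.24, edgeR adjusted p = 0.0347), a call lost in 10 of the 14 fits without 1 sample: those without any 1 healthy mouse, either mouse of day 1, mouse 3 or 4 of day 3, or mouse 3 or 4 of day 7. Apom, which carries S1P in the blood and is made by hepatocytes, was called at no day. It ranged from 1.30 to 49.1 CPM among healthy mice alone, highest in mouse 4, and is named here after its values were seen.

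In the list of 19 tested ceramide and sphingosine enzymes, the ceramide synthase Cers6 rose at every day and Cers4, another ceramide synthase, fell at the later ones. Cers6 went from 2.39 to 5.99 CPM in healthy mice to 26.9 and 15.7 at day 1, a range of 8.65 to 26.7 at day 3, and a range of 19.6 to 29.0 at day 7 (log2 fold changes 2.25 ± 0.42, 2.03 ± 0.37 and 2.33 ± 0.38, edgeR adjusted p = 0.00858, 0.00717 and 0.00779), with the day 1 call lost only without mouse 1 of that day (adjusted p = 0.216). Cers4 was 79.7 to 113 CPM in healthy mice, with 45.9 to 55.4 at day 3, then 50.8 to 69.4 at day 7 (-0.94 ± 0.16 and -0.73 ± 0.16, edgeR adjusted p = 0.00485 and 0.0274), and its day 7 call was lost in 9 of the 14 fits without 1 sample (healthy mouse 1, 2 or 3, either mouse of day 1, mouse 3 of day 3, mouse 2, 3 or 4 of day 7). Sgms1, which makes sphingomyelin, and Cerk, the ceramide kinase, rose at day 1 only among the 3 days, 1.17 ± 0.21 and 1.12 ± 0.24 on the log2 scale (edgeR adjusted p = 0.00743 and 0.0161). Both calls were lost without either mouse of day 1, and that of Cerk also without healthy mouse 4. Kdsr was also called at day 1 (higher, 0.82 ± 0.17) and Cers2 at day 7 (lower, -0.65 ± 0.15), both outside the rule for named genes. The former was lost without either mouse of day 1 and the latter in 12 of the 14 fits, all except those without mouse 4 of day 3 or mouse 1 of day 7.

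Of 19 enzymes that form or acylate lysophospholipids, Pla1a, a phospholipase that cleaves phosphatidylserine, rose at day 1 from 1.07 to 2.77 CPM in healthy mice to 10.8 and 18.9 CPM (3.18 ± 0.59, edgeR adjusted p = 0.00817, and 0.0820 without mouse 2 of day 1). Gdpd1, a lysophospholipase D, rose at day 1 from 11.5 to 14.2 CPM to 24.1 and 25.4 CPM (0.99 ± 0.22, edgeR adjusted p = 0.0209), a call lost without either of those mice or without healthy mouse 1, 2 or 4. Lpcat1, which turns lysophosphatidylcholine back into phosphatidylcholine, fell at day 3 (-1.97 ± 0.43, edgeR adjusted p = 0.0164). It stood at 101 to 126 CPM in healthy mice and at 14.2, 16.4, 33.9 and 49.2 CPM at day 3, again lowest in mice 1 and 2. At day 7 mice ranged from 25.1 to 101 CPM, and Lpcat1 was not called (edgeR adjusted p = 0.354).

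**Figure D4:**
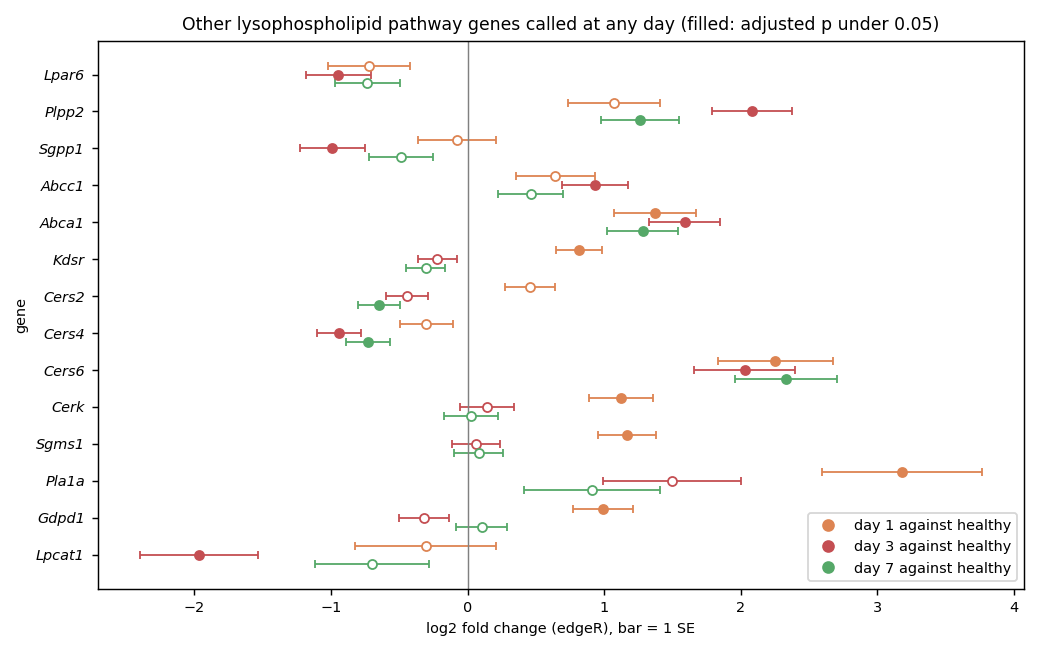
Log2 fold change against healthy (horizontal axis, bar 1 SE on each side) at days 1, 3 and 7 for the 14 other pathway genes called at 1 or more of these days; filled points passed an edgeR adjusted p under 0.05. Abca1 and Cers6 are filled at all 3 days on the right, and Lpcat1 at day 3 stands farthest left (-1.97).

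The genes most like Plpp3 across the 14 samples were ranked by Pearson's r of log2 CPM among 9769 tested genes with a mean of at least 10 CPM. The 10 highest were Prkab1, a subunit of AMP-activated protein kinase (r = 0.969), Kbtbd2 (0.966), the junction protein gene F11r (0.964), the atypical protein kinase C gene Prkci (0.961), Pros1, which encodes the anticoagulant protein S (0.960), the adducin gene Add3 (0.958), the choline transporter gene Slc44a1 (0.957), the ubiquitin ligase gene Mylip (0.957), the helicase gene Dhx32 (0.950) and the tetraspanin gene Tspan7 (0.949). Their Spearman's rho was 0.877 to 0.947, and the median r over all 9769 genes was 0.152. The points share their libraries and the 4 groups, and the genes were picked as the highest of many, so these values are a description. Tspan7 averaged 1515 CPM in healthy LSECs, 1261 at day 1, 617 at day 3 and 957 at day 7. Ranking by rho shared 2 of the 10 names, and scaling by library size only shared 9. Of the other pathway genes Sgpp1 came nearest to Plpp3 (r = 0.921, rank 38), followed by Cers4 (0.888, rank 110) and Lpcat1 (0.866, rank 172).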

How the data were processed

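RNA of LSECs sorted from 14 mice was sequenced, and the reads were aligned by the authors to GRCm38.p6 (STAR) and assembled (StringTie), according to the methods and the submitters' processing notes. What the authors deposited are raw counts, whole numbers for each Ensembl gene in each sample, not normalized. How the assembly became counts, the annotation release and the use of strand are not given in the sources used here, and the methods call the reads both paired-end and single-end. Groups came from the sample titles, and each library was taken as 1 mouse. Pooling of animals is not given in the sources used here, so p-values measure the spread between these samples. No 2 samples of a group agreed within sampling noise. Names, positions and exon lengths are those of GENCODE vM21, which held 54495 of the 54524 genes.

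Low genes were removed by filterByExpr (minimum count 10 by group, minimum total 15), TMM factors scaled the libraries, and genes were tested with edgeR 4.0.16 (R 4.3.3, quasi-likelihood) in 1 model of 4 group means over all 14 samples. SEs are the log2 fold change over the square root of F, and log2 CPM used a prior count of 2. A gene was taken as not detected under 3 counts, which covers counting error only. Libraries held 46401496 to 103912264 counts, and the lowest count of the 10 genes in any sample was 17 (Enpp2 at day 1). Alternatives were DESeq2 1.42.0, which the study's methods name, limma 3.58.1 (voom with quality weights), scaling by RLE or by library size alone, 2 other filters, models of 2 groups, a replicate block and leaving out each sample. The scripts were tested on simulated data.

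The 10 genes, the pathway lists and the marker lists were chosen with earlier results of these data known. Named were the 10 genes, the pathway genes called at 1 or more days against healthy (at most 4 of a list, by fold), and the 10 genes most like Plpp3 that do not overlap its locus.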

Additional observations from a re-analysis of the deposited data

Results flagged for a closer look

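S1pr2 in healthy mouse 1 (6.45 CPM) lay apart from the other 3 healthy mice. Its gap to the nearest of them was 0.860 of the group's range, above Dixon's critical value for 4 samples. This was 1 of 30 groups of 4 examined, and chance flags about 1 in 20.

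The differences from healthy LSECs were unequal between days for 5 genes by the test of the difference itself. Plpp1 differed by -1.77 on the log2 scale between days 3 and 1 and by -2.20 between days 7 and 1, and S1pr1 by -1.83 and -2.24. Between days 7 and 1 Sphk1 differed by -2.25, S1pr2 by 1.10 and Enpp2 by 4.15. The group of day 1 has 2 mice, and the calls of Plpp1 between days 3 and 1 and of Sphk1, S1pr2 and Enpp2 between days 7 and 1 were lost when either of them was left out.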

How the results depend on the processing

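S1pr1 at day 1 and Plpp1 at day 7 against healthy, and S1pr1 in both comparisons with day 1 and Plpp1 at day 7 against day 1, kept their calls under all 24 alternatives each. Counts of genes called moved, over the 9 genes without Plpp3, or all 10 for day 7 against day 1. Against healthy at day 1 (2) limma-voom gave 5, at day 3 (3) no filter gave 1 and leaving out healthy mouse 4 with day 3 mouse 4, chosen after seeing the data, gave 1, and at day 7 (3) DESeq2 gave 5, limma-voom 7 and only the 2 groups 6. For day 3 against day 1 (2) DESeq2 gave 5, only the 2 groups 1 and the same pair left out 4, and for day 7 against day 3 (0) limma-voom gave 1. With 1 sample left out the counts ran from 1 to 2, 0 to 3 and 1 to 5 against healthy at days 1, 3 and 7, 1 to 3 for day 3 against day 1, 0 to 0 for day 7 against day 3 and 2 to 5 for day 7 against day 1. Where this left 1 mouse at day 1, it was assumed to vary like the other groups.

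Pathway genes called were 7, 8 and 5 at days 1, 3 and 7. DESeq2 gave 12, 17 and 8, limma-voom 20, 28 and 28, only the 2 groups 13 at day 1 and 12 at day 7, and library size only and no filter 3 each at day 7. Leaving out day 3 mice 1 and 2, chosen after seeing the data, gave 9 at day 7, and leaving out healthy mouse 4 with day 3 mouse 4 gave 8. Leaving out 1 sample gave 1 to 9, 5 to 13 and 1 to 11. Over all genes, calls ranged over the alternatives from 164 to 4308, from 946 to 7265 and from 193 to 7047 at days 1, 3 and 7 against healthy, and from 49 to 3344, 1 to 6002 and 146 to 7610 for day 3 against day 1, day 7 against day 3 and day 7 against day 1 (1080, 1915, 846, 676, 472 and 2142 as reported). The causes were not tested.

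Plpp3 against healthy was -1.94 at day 3 with limma-voom. With 1 sample left out the limits were -0.58 and -0.21 at day 1, -1.70 and -1.18 at day 3, and -1.07 and -0.94 at day 7. Healthy and day 3 values of Plpp3 chose the set, so these limits are a description and no support for its fall. For day 7 against day 1 it was -0.65 with limma-voom and -0.62 without day 3 mice 1 and 2, the only 2 of 24 alternatives that called it. The latter leaves out samples whose Plpp3 values chose the set and supports nothing. Plpp3 was -0.79 to -0.42 with 1 sample left out. Signs turned only for uncalled values: Sphk2 at day 1 (-0.12 without day 1 mouse 1, up to 0.25 with another sample left out), Spns2 at day 3 (0.12 without day 3 mice 1 and 2) and Enpp2 at day 3 (0.55 with limma-voom, 0.49 without healthy mouse 4, down to -1.09 with another sample left out, 0.81 without that mouse and day 3 mouse 4).

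Sample numbers gave no sign of pairing: deviations of samples with the same number correlated at -0.232 to 0.0962 (0 of 18 pairs over 0.1). Groups this small cannot exclude a pairing. With the replicate block, calls were 2, 3 and 1 of 9 genes against healthy at days 1, 3 and 7 and 3 of 10 for day 7 against day 1, pathway calls were 3, 7 and 2, and Plpp3 was -0.18, -1.45 and -1.02 against healthy and -0.85 for day 7 against day 1. Scaling by library size only moved the share of higher calls over all genes (64.2% at day 3 and 68.8% at day 7 against healthy) to 75.1% and 86.8%, and the median log2 fold change of day 7 against day 1 from 0.03 to 0.15.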
